A study of Mus musculus with 4 samples.

Results

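Chromatin accessibility was examined at 10 transcription factor genes of the cardiac lineage, Gata4, Gata5, Gata6, Nkx2-5, Tbx5, Tbx20, Hand1, Hand2, Mef2a and Isl1, of 21887 protein-coding genes on chromosomes 1 to 19, X and Y. The genes were chosen by name, with earlier results of these data known. Every ATAC-seq peak whose summit lay inside one of them or within 20 kb of either gene boundary was assigned to it (a window peak). All 10 were found in the RefSeq gene table, and 7 had a window peak in at least 1 library.

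The study asked whether raised microRNA-187 (miR-187) in the endothelium alters chromatin in the newborn heart. There were 4 ATAC-seq libraries from P0 mouse hearts, 2 from wild-type (WT) mice and 2 from miR-187 mice, each made from 50000 cells. The replicates are called WT-1, WT-2, miR-187-1 and miR-187-2 here. ATAC-seq marks open chromatin as sites where a transposase can cut the DNA. The miR-187 mice carried exogenous mmu-miR-187, driven by the promoter and enhancer of Tek (Tie2), knocked into the Rosa26 locus, and both groups shared a C57BL/6J background. Tek is active in endothelial cells and their precursors, so the transgene is meant to act in vessels and endocardium and not in muscle. The study gives the genotypes behind its mouse ATAC-seq signals as +/+ and KI/KI, that is wild type and homozygous for the knock-in. The labels do not say how many hearts went into a library or whether replicates came from separate animals. The test p-values below therefore measure only the spread between these libraries, which may be technical. The study describes the cells as cardiac endothelial cells captured with CD31 magnetic beads, whereas the labels name only heart.

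The 4 peak lists differed greatly in length. WT-1 held 9452 peaks, WT-2 held 12298, miR-187-1 held 7496 and miR-187-2 held 1483. Read totals were not used here. The background coverage that the peak values imply, in reads stacked per base, was 0.350, 1.05, 0.403 and 0.207 in the same order. WT-2 was thus the highest and miR-187-2 the lowest by this inferred stand-in for depth, which may also carry noise. Between WT-2 and miR-187-1 the background differed 2.59-fold, whereas the summit reads at the 5 cardiac factor regions they share differed 1 to 1.71-fold. For miR-187-2, list length and depth cannot be told apart from genotype in what follows.

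The 10 factors form the core network that specifies and maintains heart muscle. GATA factors bind GATA motifs, NKX2-5 is a homeodomain protein, TBX5 and TBX20 are T-box proteins, HAND1 and HAND2 are basic helix-loop-helix proteins that bind E-boxes, MEF2A is a MADS-box protein and ISL1 marks second heart field progenitors. Several of them are also used outside heart muscle, with Gata4, Gata6 and Tbx20 known in endocardial cells or their derivatives. A peak near such a gene in an endothelial preparation can therefore come from endothelial cells or from muscle cells among them.

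RefSeq promoter sequence was at hand for 6 of the 10 genes (Gata5, Nkx2-5, Tbx20, Hand2, Mef2a and Isl1), and not for Gata4, Gata6, Tbx5 and Hand1. The 250 bases upstream of the start of 4 of them are shown, 5′ to 3′ on the strand of the gene, build GRCm38.p6. Tbx20 is shown because it is the single gene whose promoter window overlapped a member's peak, Mef2a because the region found in most libraries lies just upstream of its window, and Hand2 and Isl1 because, among the windows without a peak, they are the ones with a GATAA match. Capitals mark matches, on either strand, to GATAA, a motif of zinc finger factors such as GATA4, to AAGTG, a motif of NK-2 homeodomain proteins, to GGTGTG, a motif of T-box proteins, to CANNTG, the E-box of helix-loop-helix proteins, and to TAAAAATA, a motif of MEF2 proteins.

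Tbx20 chr9:24774304-24774553, minus strand: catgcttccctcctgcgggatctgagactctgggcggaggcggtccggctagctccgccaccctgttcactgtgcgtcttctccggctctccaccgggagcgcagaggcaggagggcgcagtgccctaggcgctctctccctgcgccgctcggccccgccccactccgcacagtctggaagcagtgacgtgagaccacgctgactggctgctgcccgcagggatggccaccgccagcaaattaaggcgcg
Mef2a chr7:67372859-67373108, minus strand: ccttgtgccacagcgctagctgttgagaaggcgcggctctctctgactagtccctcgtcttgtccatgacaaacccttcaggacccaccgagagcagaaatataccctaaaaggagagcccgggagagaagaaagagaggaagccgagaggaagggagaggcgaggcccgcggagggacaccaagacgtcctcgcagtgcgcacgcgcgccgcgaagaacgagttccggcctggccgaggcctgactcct
Hand2 chr8:57320733-57320982, plus strand: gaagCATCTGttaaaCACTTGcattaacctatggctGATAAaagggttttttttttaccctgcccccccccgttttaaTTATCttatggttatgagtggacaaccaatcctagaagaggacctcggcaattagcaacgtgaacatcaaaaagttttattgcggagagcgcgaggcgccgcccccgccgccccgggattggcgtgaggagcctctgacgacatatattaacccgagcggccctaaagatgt
Isl1 chr13:116309689-116309938, minus strand: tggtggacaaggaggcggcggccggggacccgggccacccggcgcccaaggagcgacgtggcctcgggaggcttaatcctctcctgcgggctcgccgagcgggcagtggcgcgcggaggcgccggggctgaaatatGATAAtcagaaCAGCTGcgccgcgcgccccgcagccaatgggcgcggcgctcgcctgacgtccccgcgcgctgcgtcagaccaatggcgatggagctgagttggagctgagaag

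The Tbx20 and Mef2a windows held none of the 5 motifs. Hand2 held 2 GATAA matches, 2 E-boxes and 1 AAGTG match, the last lying within an E-box. Isl1 held 1 GATAA match and 1 E-box, and Gata5 and Nkx2-5 held 1 E-box each. Among 27025 RefSeq promoter windows of the same length, GATAA was found in 23.0%, AAGTG in 40.8%, GGTGTG in 16.2%, CANNTG in 66.0% and TAAAAATA in 2.48%. A match of these letters is a description and no binding site. The windows differed more in base composition. CpG dinucleotides numbered 33 in Isl1, 22 in Gata5, 22 in Tbx20, 21 in Mef2a, 15 in Hand2 and 8 in Nkx2-5, against a median of 6 over all windows. The number of CpG did not order the genes by peaks at the start, since the starts of Isl1 and Gata5, with 33 and 22 CpG, had none in any library while Tbx20, with 22, had one.

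The share of cardiac factors with a window peak was near that of other genes, and most of their peaks were weak members of their lists. Of the 10 genes, 4 had a window peak in WT-1, 6 in WT-2, 4 in miR-187-1 and 0 in miR-187-2. Over all protein-coding genes the share with a window peak was 45.2%, 53.8%, 40.3% and 8.83% in the same libraries, so the cardiac factors stood near the background in each of the first 3. The number of window peaks was 7, 7, 6 and 0, which makes 20 peaks in all. Per Mb of window this was 8.45, 8.45, 7.24 and 0 peaks, against 5.64, 7.63, 4.62 and 0.831 over the windows of all protein-coding genes. By this density the cardiac factors stood above all genes in WT-1, WT-2 and miR-187-1, a difference that was not tested. At a share of 8.83%, fewer than 1 of 10 genes with a peak would be usual in miR-187-2, so its 0 is close to what its short list gives for any genes.

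**Figure D1:**
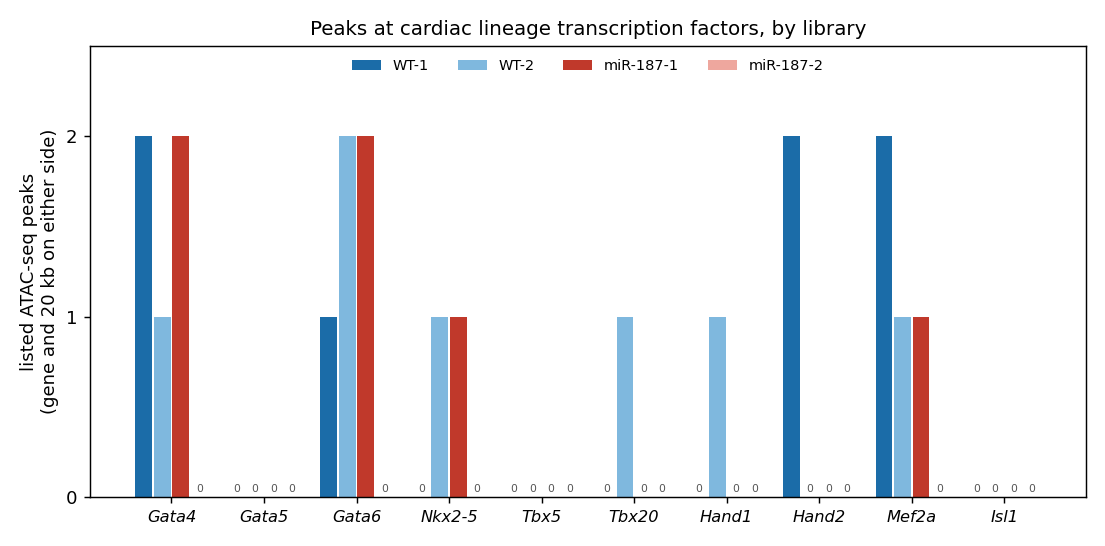
Number of listed ATAC-seq peaks (vertical axis) inside each cardiac factor gene or within 20 kb of it (horizontal axis), 1 bar for each library and a 0 where none was listed. Gata4, Gata6 and Mef2a had peaks in 3 libraries each, Gata5, Tbx5 and Isl1 in none, and miR-187-2 had no peak at any of the 10.

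The GATA family held 10 of the 20 peaks, all at 2 of its 3 members here. Gata4, a zinc finger factor of the heart field and endocardial cushions, had 2 peaks in WT-1, 1 in WT-2, 2 in miR-187-1 and 0 in miR-187-2. These lay at 4 places within the gene (chr14:63198914-63271712), of which only 1 was found in 2 libraries. That region, chr14:63247713-63248062, lies 23.8 to 23.9 kb inside the upper gene boundary, and its summits in WT-2 and miR-187-1 were 29 bp apart. Its −log10 q, the strength the peak caller gave on a log scale of the false discovery rate, was 3.02 in WT-2 (percentile 16.0 of that list) and 3.82 in miR-187-1 (percentile 44.2). The miR-187-1 list also held a peak 112 bp inside the upper boundary of Gata4, at 4.87-fold enrichment over local background and a −log10 q of 3.33. WT-1, WT-2 and miR-187-2 lacked a listed peak there. The 2 Gata4 peaks of WT-1, near 63240380 and 63245324, had −log10 q of 2.58 and 2.23 and were in no other list.

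Gata6, which acts beside Gata4 in the second heart field and outflow tract, had 1, 2, 2 and 0 peaks in the same order of libraries. Its 2 shared regions were the best-aligned pair among all of the cardiac factors. The first, chr18:11052204-11052719, sits on the lower gene boundary, where Gata6 adjoins the noncoding gene Gata6os, and the WT-2 and miR-187-1 summits differed by 3 bp. The second, chr18:11053081-11053351, lies 701 to 717 bp inside the gene with summits 16 bp apart. At the first, 24 reads were stacked at the summit in WT-2 (3.99-fold, −log10 q 5.59) and 14 in miR-187-1 (3.79-fold, −log10 q 2.77). At the second, the numbers were 23 reads (3.83-fold, −log10 q 5.03) and 17 reads (4.62-fold, −log10 q 4.61). Neither region had a peak in WT-1, whose single Gata6 peak lay 25.7 kb inside the gene from that boundary, with 6 reads and a −log10 q of 2.13, at percentile 10.2 of its list. Gata5, an endocardial and endoderm GATA factor, had 0 peaks in every library.

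Mef2a, which drives muscle genes with other MEF2 proteins, had 2, 1, 1 and 0 peaks, and held the single region found in 3 libraries. This region, chr7:67373128-67373876, had summits 481, 423 and 390 bp upstream of the RefSeq start used for the promoter window in WT-1, WT-2 and miR-187-1. It begins 19 bases beyond the far end of the Mef2a sequence printed above, and it lies 3.1 to 3.2 kb inside the outermost boundary of the gene. The enrichment was 4.31-fold, 5.25-fold and 5.04-fold in the 3 libraries, with 9, 18 and 11 reads at the summit. In WT-2 it was the strongest of the 20 peaks (−log10 q 6.31, percentile 71.3 of that list), while in WT-1 it stood at a −log10 q of 2.45 and in miR-187-1 at 3.75. The second peak of WT-1 lay 8.7 kb below the gene, 77 bp from the boundary of the noncoding gene 1700112J16Rik and nearer to the protein-coding gene Lysmd4 than to Mef2a.

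Nkx2-5, the homeodomain factor of early heart muscle, had 0, 1, 1 and 0 peaks. Both were at chr17:26861433-26861782, which lies 16.6 to 16.7 kb beyond the gene and 20.0 to 20.1 kb upstream of its RefSeq start, inside the noncoding gene Gm17382. The peaks of WT-2 (4.72-fold) and miR-187-1 (5.26-fold) shared 85 bp, with summits 97 bp apart and 9 reads each. Nkx2-5 itself, from 26838664 to 26844988, had no listed peak in any library.

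Of the T-box genes among the 10, Tbx20 had a single peak and Tbx5 had none. Over all protein-coding genes, 35.4% had no window peak in any library. Tbx20, needed in heart muscle and endocardial cushions, had 0, 1, 0 and 0 peaks. The peak of WT-2, chr9:24774173-24774538, covers the start of the gene and 235 of the 250 bases printed above, and its summit is at base 70 of that sequence, 181 bp upstream of the start. It was also the weakest of the 20 by its place in its own list, with 3.57-fold enrichment, a −log10 q of 2.18 and a percentile of 3.74. Tbx5, which patterns the atria, left ventricle and conduction system, had 0 peaks in all 4 libraries although its window of 129 kb is the second longest of the 10.

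The HAND genes had peaks only outside the genes, each in a single library. Hand2, a factor of the right ventricle, second heart field and endocardium, had 2, 0, 0 and 0 peaks. One lay 12.6 kb upstream of the gene in the noncoding gene Hand2os1 (chr8:57308284-57308487, 5.92-fold, −log10 q 4.30) and one 16.5 kb downstream in the noncoding gene Hdnr (chr8:57340876-57341156, 5.92-fold, −log10 q 4.26). They stood at percentiles 68.9 and 67.1 of WT-1, the highest of any peak of that library among the cardiac factors, with 7 and 8 reads at the summit. Hand1, a factor of the left ventricle, had 0, 1, 0 and 0 peaks, the one lying 8.3 kb from the gene at chr11:57820113-57820537 (5.22-fold, −log10 q 4.33). Isl1 had 0 peaks in every library in a window of 51.4 kb that holds no other gene.

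**Figure D2:**
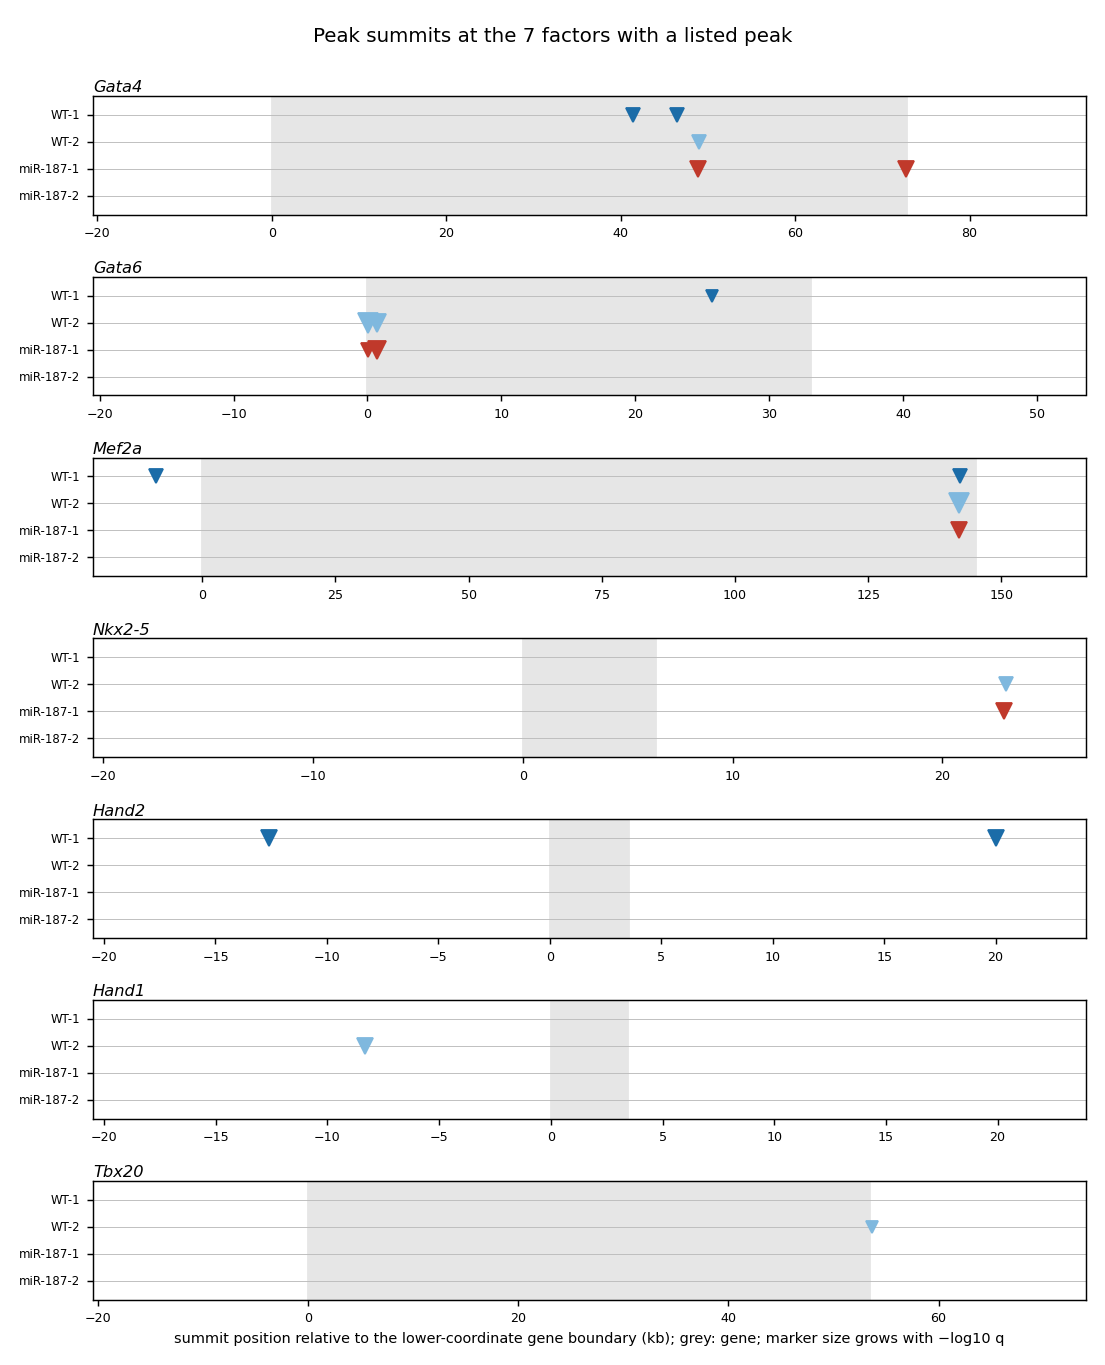
Position of every listed summit at the 7 cardiac factors with a peak, in kb from the lower-coordinate boundary of the gene (horizontal axis), with 1 line for each library and the gene in grey. Summits of WT-2 and miR-187-1 fall together at Gata4, Gata6, Mef2a and Nkx2-5, and those of WT-1 fall elsewhere except at Mef2a.

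By place, 13 of the 20 peaks had their summit inside the factor's own gene and 7 outside, and 7 summits lay in a noncoding gene. Summits within 1 kb of a boundary of the gene (boundary peaks) marked 0, 2, 2 and 0 genes in WT-1, WT-2, miR-187-1 and miR-187-2. The genes were Gata6 and Tbx20 in WT-2 and Gata4 and Gata6 in miR-187-1. Over all protein-coding genes the shares were 21%, 29.9%, 19.4% and 3.07%. The Mef2a region is not counted here because it lies farther from the outermost boundary, and adding promoter-table starts made the numbers 1, 3, 3 and 0, a choice made after the positions were seen. The 5 genes longer than 30 kb (33.1 to 145 kb) held 15 of the 20 peaks and the 5 shorter ones (3.43 to 11.4 kb) held 5. Among the long genes the counts still differed, with 4 peaks at Mef2a, 0 at Tbx5 (88.7 kb), 5 at Gata4, 1 at Tbx20 (53.5 kb) and 5 at Gata6 (33.1 kb).

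By strength, the 20 peaks were ordinary or weak members of their lists. Their enrichment ranged from 3.57-fold to 5.92-fold, and their −log10 q from 2.13 to 6.31. They held 6 to 24 reads at the summit. Only 6 of 20 stood above the median −log10 q of their list (2 Hand2 peaks in WT-1, 2 at Gata6 and 1 at Mef2a in WT-2, 1 at Gata6 in miR-187-1), and 0 stood above the 90th percentile. At a −log10 q of at least 5, 3 peaks remained, all in WT-2, 2 at Gata6 and 1 at Mef2a. The share of all listed peaks at that strength was 21.2% in WT-1, 46.1% in WT-2, 30.9% in miR-187-1 and 8.7% in miR-187-2, so WT-2 had the largest share of such peaks in general.

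**Figure D3:**
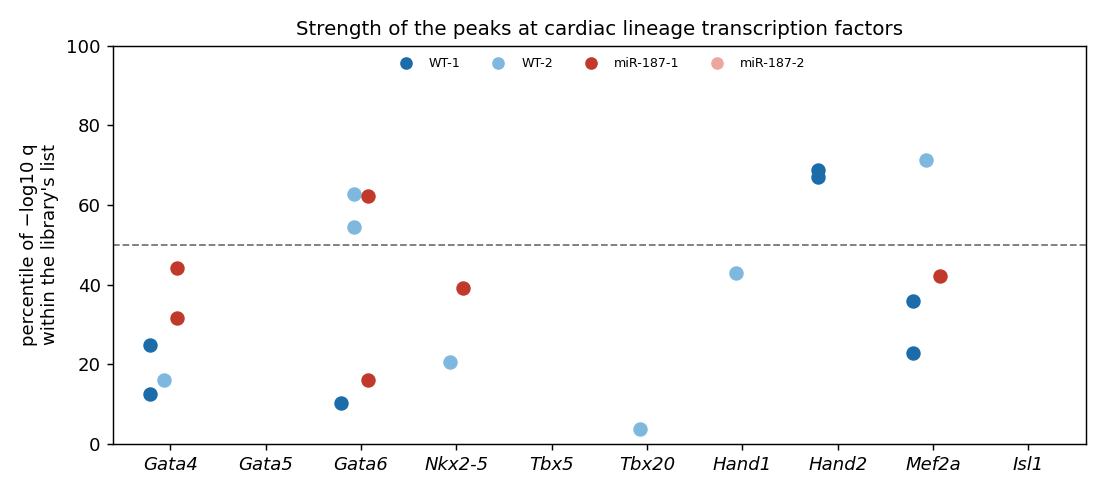
Percentile of −log10 q of each of the 20 peaks within the list of its own library (vertical axis, dashed line at the list median) for each cardiac factor (horizontal axis). The points run from 3.74 for Tbx20 to 71.3 for Mef2a, both in WT-2, and most lie under the dashed line.

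The comparison of genotypes asked whether miR-187 mice lacked accessible sites at these genes. The mean number of cardiac factors with a window peak was 5 ± 1.41 for the WT libraries and 2 ± 2.83 for the miR-187 libraries (SD, n = 2 each), a difference of -3. The miR-187 libraries differed from each other by 4 genes, since 1 of them had as many as WT-1 and the other had none. Without miR-187-2 the difference was -1 and without miR-187-1 it was -5, and without WT-2 it was -2. It was -1 among peaks with −log10 q of 5 or more, and 0 with each list cut to its 1483 strongest peaks, where no library had a peak at any of the 10. Window peaks numbered 7 ± 0 in WT and 3 ± 4.24 in miR-187, a difference of -4 that became -1 without miR-187-2 and -7 without miR-187-1. Per 1000 listed peaks, a measure that takes the lengths of the lists into account, WT had 0.655 ± 0.121 and miR-187 0.400 ± 0.566. That difference of -0.255 changed sign to 0.146 without miR-187-2, as miR-187-1 alone stood at 0.800. With a 5 kb window the differences were -2 genes, -2 window peaks and -0.0814 per 1000. With the summit inside the gene they were -1.5, -1.5 and -0.0407, and with a 50 kb window -3, -4.5 and -0.216.

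For single genes, exact permutation of the 4 libraries has 6 assignments to groups, of which at least 2 are as extreme as the observed one in a two-sided test, so no gene could pass 0.05. The exact permutation p was 0.667 for Mef2a (1.5 ± 0.707 peaks in WT and 0.5 ± 0.707 in miR-187, n = 2 each) and 1 for Gata4, Gata6, Nkx2-5, Tbx20, Hand1 and Hand2. The largest differences were -1 for Hand2 and for Mef2a, and Nkx2-5 differed by 0. The groups overlapped for every one of the 10. None of them had a higher count in both WT libraries than in both miR-187 libraries, against 14.3% of all protein-coding genes. The reverse, seen in 0.178% of all genes, could not occur here, since miR-187-2 had no peak at any of the 10. In addition, 0 of 10 had peaks in WT-1 and WT-2 but in neither miR-187 library, against 9.38% of all protein-coding genes. No peak anywhere was found for 3 of 10, against 35.4%.

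Region by region, miR-187-2 had no peak at these genes, so sharing could only be between the WT lists or across the genotypes. When overlapping peaks were merged, the 20 peaks made 14 regions, of which 9 were in 1 list, 4 in 2 lists and 1 in 3. None had peaks in both WT lists and no miR-187 list, against 9.36% of the 17774 regions in the windows of all protein-coding genes. Peaks in both miR-187 lists and no WT list, seen at 0.146% of all regions, could not occur here without miR-187-2 peaks. The number in 2 or more lists was 5 of 14, against 35.3% of all regions. All 5 joined WT-2 and miR-187-1, a pair that shared 21.4% of all regions, and 1 (Mef2a) joined both WT libraries, which shared 22.3% of all regions. The 7 peaks of WT-1 thus had 1 counterpart in WT-2, where 49.1% of all WT-1 regions in gene windows had one. That share covers WT-1 regions of every strength, whereas the WT-1 peaks at these genes had a median percentile of 24.7 in their list. Leaving out WT-2 or miR-187-1 reduced the regions in 2 or more lists to 1.

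Depth was set beside each absence. For every peak the number of reads at the summit was scaled by the ratio of background coverage to each other library, and compared with the number of reads that library needed for a call over a background raised in the same way. Each peak was scaled from a library where its summit was high enough to be called, which can raise the scaled numbers. Of the 20 peaks, 18 would have held fewer reads than needed at the depth of miR-187-2. The scaled numbers there ran from 1.78 to 8.71 reads against a need of 4 to 9. The strongest miR-187-1 peak at Gata6 scaled to 8.71 reads with 9 needed, and the Mef2a peak of WT-2 to 3.56 with 5 needed. The exceptions were both Hand2 peaks, at 4.13 and 4.72 reads with 4 needed. Of these peaks, 5 of 7 from WT-1, 7 of 7 from WT-2 and 6 of 6 from miR-187-1 were short. No peak recurred in miR-187-2, so the scaling could not be checked there, and the part of depth in these absences was not tested.

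The peaks of WT-1 came out on the other side of the line. Scaled to WT-2, the 6 without a counterpart there would have held 17.9 to 29.8 reads where 7 to 16 were needed. The 2 Hand2 peaks, for example, scaled to 20.9 and 23.9 reads with 7 and 8 needed, and the 2 Gata4 peaks to 26.9 and 29.8 with 13 and 16 needed. Scaled to miR-187-1, the same 6 would have held 6.91 to 11.5 reads with 5 to 10 needed. The peaks that did recur in WT-2 also scaled to more reads than were observed there, by 1.49 times for the 1 from WT-1 (Mef2a) and by 1.51 to 2.59 times for the 5 from miR-187-1. In the other direction, the 6 peaks of WT-2 absent from WT-1 were all short of the reads needed there, whereas the 5 of miR-187-1 absent there were not. Of these, 4 are the same regions (1 at Gata4, 2 at Gata6 and 1 at Nkx2-5), so the scaling gave opposite answers at each of them. The Gata4 region, for example, scaled to 4.69 reads with 6 needed from WT-2 and to 11.3 with 8 needed from miR-187-1. The scaling is approximate: 4 of 6 peaks of other libraries that did recur in miR-187-1 were also short by it. Scaled numbers were below the reads observed for all 6 of those peaks (0.386 to 0.942 times) and above them for all 6 that recurred in WT-2.

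**Figure D4:**
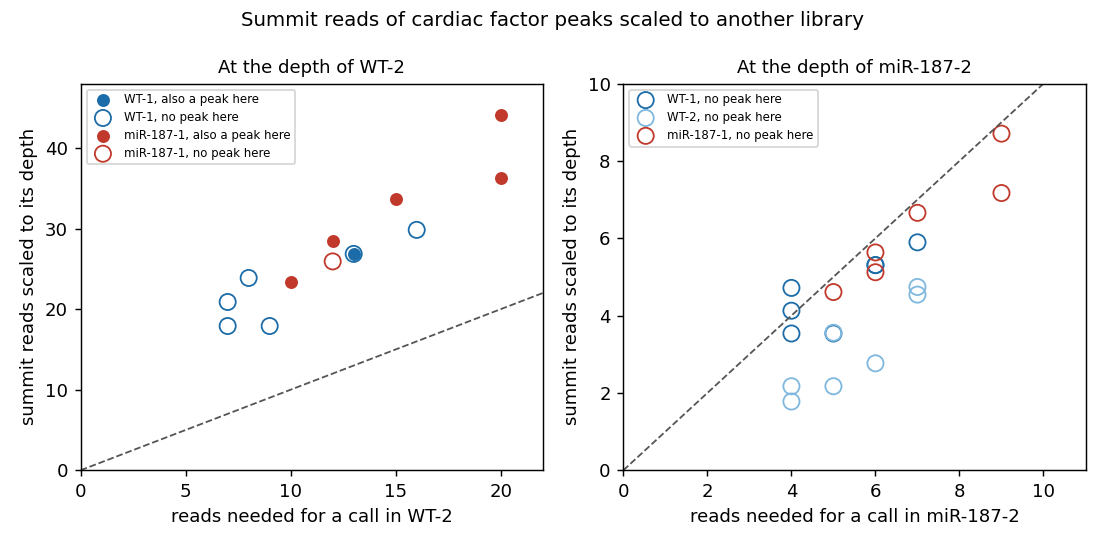
Reads at the summit of cardiac factor peaks of other libraries after scaling to the depth of WT-2 (left) or miR-187-2 (right), vertical axis, against the reads needed for a call there, horizontal axis, with a dashed line where the numbers are equal. Filled points recurred and open points did not, and points can coincide. All points at the depth of WT-2 lie above the line, and 18 of 20 at that of miR-187-2 lie below it.

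Given the endothelial origin stated for the cells, the cardiac factors were set beside endothelial transcription factors, without a test of the difference. Both lists were chosen with earlier results of these data known. Of 20 endothelial factors, such as Erg, Fli1 and Sox17, 75% had a window peak in WT-1, 100% in WT-2, 60% in miR-187-1 and 15% in miR-187-2. The cardiac factors stood at 40%, 60%, 40% and 0%. The difference was -27.5 ± 11.9 percentage points (SD over 4 libraries), lower in 4 of 4. It was -13.8 when each list was cut to its 1483 strongest peaks. At that cut no cardiac factor had a peak in any library, so the value gives the endothelial share alone. The difference was -16.2 when only peaks nearest to the gene were counted, where WT-2 went from -40 to -15. With a 5 kb window it was -20, with a difference of 0 in miR-187-2. By boundary peaks, 20%, 35%, 25% and 0% of the endothelial factors were marked, against 0%, 20%, 20% and 0% of the cardiac factors. Klf4 and Klf2, flow-responsive factors, Ets2 and Nfatc1, the latter known from endocardium, had peaks in 3 or 4 libraries at mean percentiles of 73.2 to 83.1. These are the highest of that list by the rule used to name genes. Of 15 housekeeping genes, 60%, 93.3%, 46.7% and 13.3% had a window peak, and the cardiac factors differed from them by -18.3 ± 11.4 points.

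Factors that specify unrelated lineages lay below the cardiac factors. Of 20 such genes, including Pax6, Myod1 and Pdx1, 15%, 10%, 10% and 0% had a window peak, so the cardiac factors were higher by 26.25 ± 20.6 points, higher in 3 libraries and equal at 0 in miR-187-2. Hnf4a, a liver factor, was the single one with a peak in 3 libraries. Of 26 other cardiac factors and cofactors, 50%, 69.2%, 46.2% and 15.4% had one, and the 10 described here differed from them by -10.2 ± 3.84 points. Among them Smarcd3, a chromatin remodelling subunit of the heart, had 3, 1, 1 and 0 peaks and Zfpm1, a GATA cofactor, 2, 1, 1 and 2, while Irx5 and Tbx3 had 1, 1, 1 and 0 each. These shares are descriptions of lists that differ in size and gene length, and no test was made over them.

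**Figure D5:**
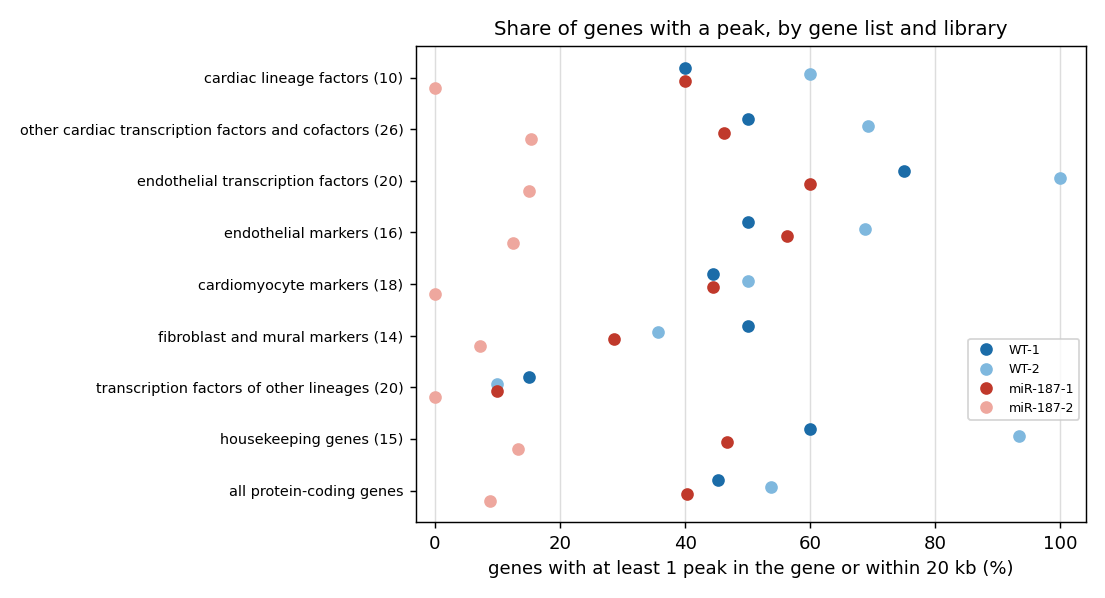
Share of genes with at least 1 window peak (horizontal axis, percent) in each gene list (number of genes in brackets) and over all protein-coding genes, 1 point for each library. The cardiac lineage factors at 40%, 60%, 40% and 0% lie left of the endothelial transcription factors and right of or level with the factors of other lineages in every library.

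Markers of both endothelial and muscle cells had window peaks, some of which may lie nearer to a neighbouring gene. Of 16 endothelial markers, 50%, 68.75%, 56.25% and 12.5% had a window peak in the same order of libraries, with 12 and 20 window peaks in the WT libraries and 12 and 2 in the miR-187 libraries. The cardiac factors differed from them by -11.9 ± 3.31 points, lower in 4 of 4 libraries. Pecam1, which encodes the CD31 used for capture, had 1, 2, 1 and 0 peaks and Cdh5 1, 2, 0 and 1, while Emcn and Cldn5 had none. Of 18 cardiomyocyte markers, 44.4%, 50%, 44.4% and 0% had one, with 10 and 14 window peaks in WT and 9 and 0 in miR-187. Myl3, a ventricular myosin light chain, had 1, 2, 1 and 0 at a mean percentile of 98.2, and Tnni1 and Actn2 had peaks in 3 libraries, whereas Myh7, Actc1, Ttn, Nppa and Nppb had none. The cardiac factors differed from these cardiomyocyte markers by 0.278 ± 6.81 points, from differences of -4.44, 10, -4.44 and 0 by library. Of 14 fibroblast and mural markers, 50%, 35.7%, 28.6% and 7.14% had one. Col1a1 alone had peaks in 3 libraries, whereas Pdgfrb, Tcf21 and Rgs5 had none. The cardiac factors differed from the fibroblast and mural markers by 4.64 ± 16.2 points. The lists stood differently by boundary peaks, which marked 0%, 20%, 20% and 0% of the cardiac factors. They marked 25%, 25%, 18.75% and 6.25% of the endothelial markers and 11.1%, 0%, 0% and 0% of the cardiomyocyte markers. For the fibroblast and mural markers the shares were 21.4%, 28.6%, 7.14% and 0%. The share of muscle, fibroblast or mural cells in the libraries and its part in the cardiac factor peaks was not tested. In bulk libraries, fewer cells with an open site and a less open site in each cell cannot be told apart.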

How the data were processed

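The authors' peak lists of 4 mouse heart ATAC-seq libraries were used, 1 per sample and not pooled. The submitters' processing notes name mm10, Bowtie2 2.2.6, SAMtools 1.10 and MACS2 2.2.7.1, among others, without parameters. Each deposited peak has a score (10 times the −log10 q), a fold enrichment at the summit (a ratio), and a −log10 p-value and −log10 q-value, as the authors' peak caller gave them.

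Peaks on the autosomes and on X and Y were assigned to RefSeq GRCm38.p6 genes (mm10 is the same build). The table has no strand or exons, so both gene boundaries were used. Coordinates are 1-based. Reads at a summit and local background were solved from fold and p, taking fold as (reads + 1)/(background + 1) and p as the Poisson tail. This gave a solution for 100% of peaks, and the read numbers are inferred, not counted. The most frequent genome-wide background value stood for depth. Peaks overlapping by at least 1 bp were merged. The text names all 10 cardiac factors and, from other lists, at most 4 genes per list with a peak in 3 or more libraries. Genes outside this rule illustrate a list or were named after their values were seen. Members and lists were chosen with earlier results of these data known. Groups were compared by exact permutation. Alternatives were a −log10 q of at least 5, lists of equal length, other windows and overlaps, the nearest gene only, a replicate block, and omission of each library in turn. Python 3.11.15, pandas 2.3.3 and scipy 1.17.1 were used.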

Additional observations from a re-analysis of the deposited data

How the results depend on the processing

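With each list cut to its 1483 strongest peaks, no cardiac factor had a peak, so the difference between genotypes was 0 genes and 0 peaks, regions in 2 or more lists numbered 0, and the difference from endothelial factors was -13.8 points. At −log10 q of 5 or more, 0 regions were in 2 or more lists, and with a reciprocal overlap of 50%, 3. Leaving out each library in turn gave differences of -5 to -1 genes, -7 to -1 window peaks and -1 to 1 boundary-peak genes. It gave -0.655 to 0.146 peaks per 1000 listed peaks, a reversal to 0.146 without miR-187-2. Regions in WT lists only ranged from 0 to 6, regions in miR-187 lists only from 0 to 1, regions in 2 or more lists from 1 to 5, and the difference from endothelial factors from -31.7 to -23.3 points. The cause of these shifts was not tested, beyond the smaller number of lists.

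Nothing in the labels ties same-numbered replicates to each other, and their deviations correlated at -0.116 over 14144 genes. With a replicate block the differences were -3 genes, -4 peaks, -0.255 per 1000 and 0 boundary-peak genes, as without it, since 2 pairs give the same mean. A crossed pairing, added after seeing the data, also gave -3 genes, with 0 genes called by either (smallest exact p of 0.5). Summits held only 6 to 24 reads, and 18 of 20 peaks were short of the reads needed in miR-187-2 by a scaling that also left 4 of 6 peaks short in miR-187-1 although they were called there. Counting only peaks nearest to the gene, the difference from endothelial factors was -16.2 points, and with a 5 kb window -20.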

Other observations

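Relatives of the cardiac factors showed a similar patchiness. In the MEF2 family, Mef2c, which is used in both heart muscle and endothelium, had 4, 3, 3 and 0 window peaks in WT-1, WT-2, miR-187-1 and miR-187-2, more than Mef2a with 2, 1, 1 and 0 in a gene of similar length (163 kb against 145 kb). Mef2d had 1, 1, 1 and 0 peaks and Mef2b 1, 1, 0 and 0. Among GATA genes, Gata2, a factor of endothelial and blood cells, had 0, 1, 0 and 0 and Gata3 1, 0, 1 and 0, both fewer than Gata4 and Gata6 with 5 peaks each. Gata1, the red cell factor, had none. Among T-box genes, Tbx3 had 1, 1, 1 and 0, Tbx2 0, 1, 1 and 0, Tbx1 0, 1, 0 and 0 and Tbx18, known from the epicardium, 0, 2, 0 and 0, whereas Tbx5 had none. No test was made between these genes.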
